A study of Mus musculus with 16 samples.

Results

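Unfasted livers of mice without hepatic methylmalonyl-CoA mutase were compared with unfasted livers of heterozygous mice. The 8 arrays were chosen by their labels, mutant unfasted (4) and heterozygous unfasted (4), from 16 arrays in all, and were described across the 19938 genes that had a probe set with a single gene symbol. The mutants were Mut -/-;TgINS-MCK-Mut and the heterozygotes Mut +/-;TgINS-MCK-Mut. Both genotypes thus carried the same transgene, in which MCK stands for the muscle creatine kinase promoter, so the enzyme was restored mainly in skeletal muscle and the controls were transgenic too and had 1 working copy of the gene in the liver. All mice were males of 4 months on a normal diet, with 1 array per liver and 4 mice per group, and the livers were frozen in liquid nitrogen. The other 8 arrays were livers of fasted mice of both genotypes, after 12 hours in heterozygotes and 8 to 12 hours in mutants. They were used for the spread of each gene and for 1 comparison at the end. The labels name no time of day, litter or array batch.

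Methylmalonyl-CoA mutase is a mitochondrial enzyme that needs a form of vitamin B12. It turns methylmalonyl-CoA, formed from propionate, several amino acids and odd-chain fatty acids, into succinyl-CoA for the tricarboxylic acid cycle. Its loss causes methylmalonic acidemia, in which the liver is a main source of toxic metabolites and hepatic mitochondria can be damaged.

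All 4 heterozygous arrays resembled each other closely, with correlations of 0.994 to 0.997, and the mutants somewhat less, with 0.986 to 0.993. The median SD of a gene was 0.11 log2 units among mutants and 0.07 among heterozygotes. Of 13 measured hepatocyte markers none was called in either direction (median -0.01), and albumin (Alb) read between 13.50 and 13.66 on all 8 arrays, so the tissue matched its label. Mutant 1 stood apart by transcripts of the pancreatic acinar cell, which makes digestive enzymes. The 28 measured acinar markers averaged 9.33 there, against 6.43 to 6.50 in the other mutants and 6.42 to 6.44 in heterozygotes, and 26 of the 28 lay above 0 in the genotype comparison. The log2 of their summed signal ranged from 11.52 to 15.45 in mutants and from 11.50 to 11.53 in heterozygotes. Cpa1, carboxypeptidase A1, read 7.05 to 7.13 in the other mutants and 6.84 to 7.07 in heterozygotes. In mutant 1, 27 genes read more than 1 log2 unit above all 7 other arrays, 19 of them in the acinar list, and only 1 of the 27 was called. Without mutant 1 the acinar list's median difference went from 0.95 to 0.03.

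In the genotype comparison 1584 of 19938 genes were called (7.94%) at an adjusted p below 0.05 (limma, Benjamini-Hochberg over all genes). In mutants 848 genes were higher (4.25% of all) and 736 lower (3.69%), and the median difference over all genes was 0.005 log2 units. At an unadjusted p below 0.05 there were 4353. Most called differences were small, with a median size of 0.41 log2 units, while 148 called genes differed at least 2-fold (77 higher, 71 lower) and 29 at least 4-fold (14 higher, 15 lower). The 4 mutants lay wholly on one side of the 4 heterozygotes for 1312 of the called genes, and for 12.0% of all genes. Without mutant 1 there were 1728 calls (8.67% of all genes, 4.88% higher and 3.79% lower), of which 1273 were shared with the 1584, and all 1584 genes kept their sign. The count fell to 698 without heterozygote 3, to 815 without heterozygote 4, to 1033 without mutant 3 and to 764 in a fit of the 8 unfasted arrays alone (3.83%, with 1.94% higher and 1.89% lower). In all, 620 genes were called whichever of the 8 arrays was left out. A named gene below kept its call in each of these 8 fits unless the arrays whose removal ended it are given, with the highest adjusted p among the fits. This rule leaves out genes named only among the single-array values near the end. Among them, Keg1 lost its call without 7 arrays in turn (limma, highest adjusted p = 0.1124) and Ckap2 without 5 (highest adjusted p = 0.1235). Calr, Ghr, Hsp90b1, Jdp2, Pck2, Pdia6, Slc7a1, Smad6, Syvn1, Tfr2 and Trib3 were not followed through these fits one by one, and the genes of the paragraph on calls that moved with mutant 1 are given without that array only. Since whole liver was measured, fewer cells of a type and less RNA per cell cannot be told apart. The p-values measure the spread between arrays of these mice.

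**Figure D1:**
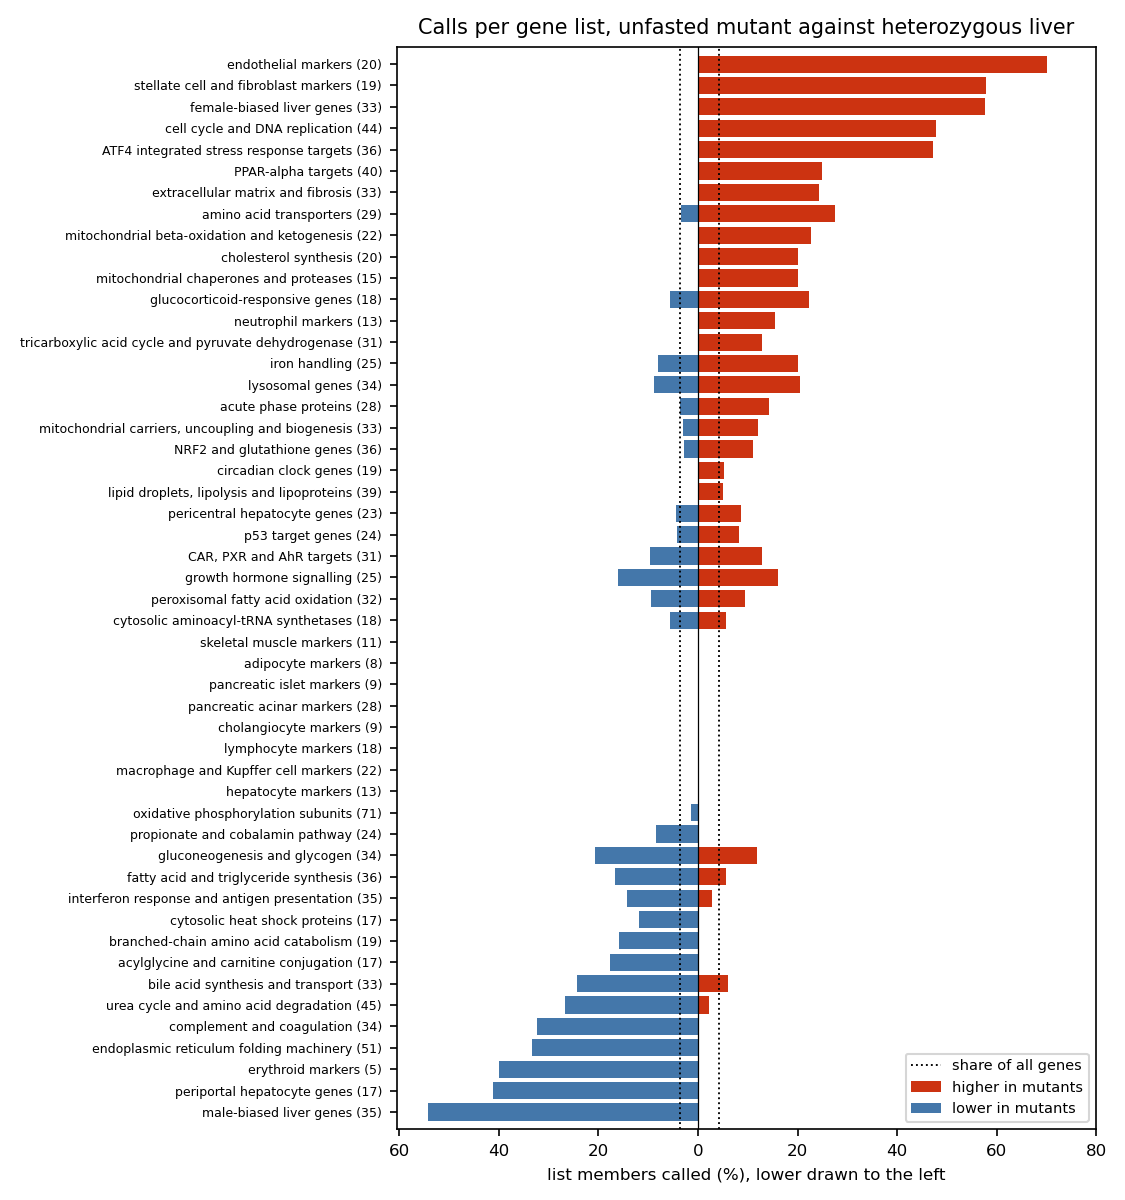
Percent of the measured members of each gene list that were called higher (red, to the right) or lower (blue, to the left) in unfasted mutant livers, with the number measured in brackets and lists of under 5 measured members left out. Dotted lines mark the share of all genes, 4.25% higher and 3.69% lower; endothelial markers have the longest bar to the right (14 of 20) and male-biased genes the longest to the left (19 of 35).

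Mmut, the targeted gene, read 8.33, 8.02, 7.87 and 7.94 in mutants 1 to 4 and 9.86, 9.66, 9.89 and 9.87 in heterozygotes 1 to 4. The groups did not overlap, and the difference was -1.78 ± 0.11 log2 units (SE, n = 4 per group; limma, adjusted p = 7.53e-07). Around it, the propionate and cobalamin pathway changed little. Of 24 measured members only Mmut and Pcca fell and none rose. Pcca, which encodes a subunit of propionyl-CoA carboxylase, the step that makes methylmalonyl-CoA, fell by 0.40 ± 0.11 (limma, adjusted p = 0.0396) and lost its call without mutant 2 or 3 or heterozygote 3 or 4 (highest adjusted p = 0.128). The genes of cobalamin processing did not pass, with Mmab at 0.25 ± 0.12 and Mmadhc at 0.33 ± 0.13. Upstream, 3 of 19 genes of branched-chain amino acid breakdown fell. Acadsb, an acyl-CoA dehydrogenase of isoleucine breakdown, fell by 0.70 ± 0.15 (limma, adjusted p = 0.0102). Without mutant 2, heterozygote 3 or heterozygote 4 that count was 1, and without mutant 3 the pathway of Mmut kept 1 fall, Mmut itself. Without mutant 1 the differences of Mmut and Acadsb were -1.88 and -0.72.

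The largest changes were in genes that differ between male and female mouse liver. In mice many liver genes differ between the sexes, because males release growth hormone in pulses and females more continuously, and the pulses act through the transcription factor STAT5B. Of 35 measured members of the male-biased list, 19 went down in these male mutants, none rose, and the list's median was -1.02. Of 33 measured members of the female-biased list 19 rose, none fell, and the median was 0.93. Without mutant 1 the counts were 17 and 19. The male-biased falls were 14 without mutant 3 or heterozygote 3 or 4. The female-biased rises were 15 without heterozygote 4 and 16 without mutant 2 or 3. In the fit of the 8 unfasted arrays the counts were 20 and 16. Without heterozygote 2, or with arrays centred on their medians, 1 female-biased gene fell.

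The steroid dehydrogenase Hsd3b5 read 5.57, 5.69, 5.49 and 5.44 in mutants and 9.92, 10.44, 11.27 and 11.72 in heterozygotes. The mutants were all near 5.5 while the heterozygotes spanned almost 2 log2 units, and the difference was -5.29 ± 0.35 (limma, adjusted p = 7.53e-07). Serpina4-ps1, annotated as a serpin pseudogene, read 8.12, 8.72, 6.01 and 5.62 in mutants and 11.59 to 12.61 in heterozygotes. Elovl3, an elongase of very long fatty acids, read 9.24, 8.52, 5.96 and 8.17 in mutants, with heterozygote 1 at 11.13 and the others between 12.40 and 12.61. For both genes the mutants differed more from each other than the heterozygotes did, and no mutant reached a heterozygote. Cyp7b1, an oxysterol hydroxylase, read 9.41, 9.38, 9.14 and 9.27 in mutants against 11.46 to 12.36 in heterozygotes, a difference of -2.76 ± 0.24 (limma, adjusted p = 1.54e-05). Slco1a1, an uptake transporter for organic anions, read 10.60, 10.62, 6.85 and 9.47 in mutants against 12.26 to 12.45. Its fall of 2.98 ± 0.87 log2 units rested on a wide spread among mutants, and the call was lost without mutant 3 or 4 or any 1 heterozygote (highest adjusted p = 0.13). Other male-biased genes that fell were the odorant-binding protein Obp2a (-3.78 ± 0.34), Cyp2u1 (-2.19 ± 0.25) and the steroid dehydrogenase Hsd3b2 (-1.95 ± 0.36). The major urinary proteins, pheromone carriers that male liver secretes in bulk, fell in all 3 measured members, with Mup21 at -2.65 ± 0.39, Mup3 at -1.25 ± 0.36 and Mup5 at -0.75 ± 0.16. Mup3 lost its call without 7 of the 8 arrays in turn, mutant 4 being the exception (highest adjusted p = 0.125). Members of this multigene family share sequence, so the array may not tell them apart.

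Among female-biased genes, Cyp2b13, a cytochrome P450, read 9.0, 10.83, 10.27 and 11.39 in mutants and 5.48, 5.97, 6.18 and 5.61 in heterozygotes, a difference of 4.57 ± 0.51 (limma, adjusted p = 0.00013). Cyp2a22 read 12.36 to 12.66 in all 4 mutants and 7.38 to 9.58 in heterozygotes, so the mutants were alike and the heterozygotes spread. Cyp2b9 had the same shape, at 12.78 to 13.04 in mutants and at 9.34, 8.88, 11.40 and 6.28 in heterozygotes. Its call was lost without mutant 2, mutant 3 or heterozygote 4 (highest adjusted p = 0.0784). The 3 genes are close relatives within cytochrome P450 subfamilies, and whether probe sets pick up signal from related members was not tested. Nipal1, a magnesium transporter, had the smallest p of all genes that rose, at 8.55, 8.76, 9.07 and 9.04 against 7.32, 7.02, 7.29 and 7.13 (1.66 ± 0.12, limma, adjusted p = 1.52e-06). The organic anion transporter Slc22a26 rose by 2.54 ± 0.31, its relative Slc22a27 by 1.92 ± 0.28, the peroxisomal fatty acid transporter Abcd2 by 2.14 ± 0.39, and Cyp39a1, an oxysterol hydroxylase, by 1.95 ± 0.31. Lepr, the leptin receptor, read 10.61, 9.87 and 10.05 in mutants 1 to 3 but 6.99 in mutant 4, inside the heterozygous range of 6.18 to 7.75. Its rise of 2.58 ± 0.59 lost its call without heterozygote 3 or 4 (highest adjusted p = 0.0544). Not every female-biased gene moved: Cyp17a1 read 0.44 ± 0.34 lower (limma, adjusted p = 0.511), the transcription factor Cux2 0.28 ± 0.13 higher (adjusted p = 0.216), and Sult3a1 did not differ detectably (-0.01). Cyp2b10, a target of the xenobiotic receptor CAR, was called only without mutant 1 (1.88, adjusted p = 0.0407), and it read 11.23 in mutant 4 and 8.29 to 9.44 in the other mutants.

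**Figure D2:**
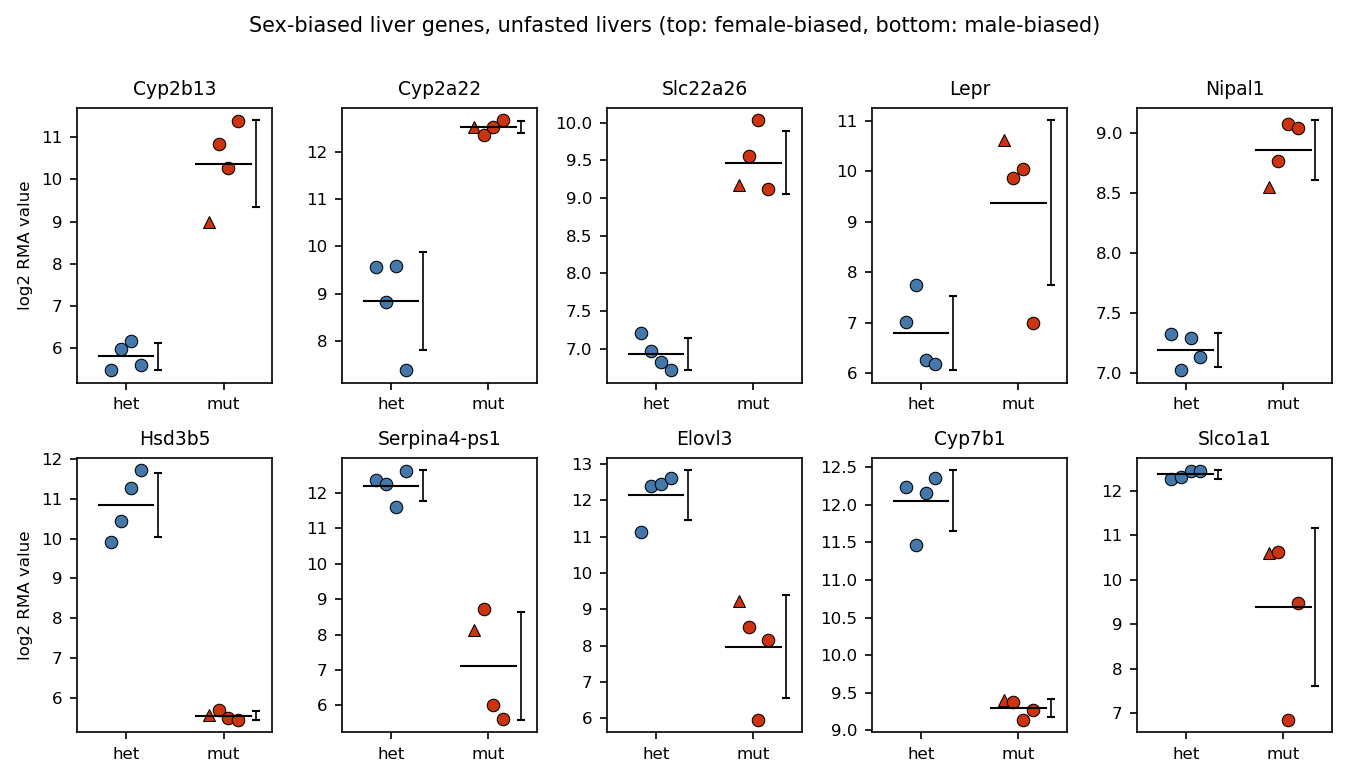
Log2 RMA values of 5 female-biased genes (top) and 5 male-biased genes (bottom) on each array of unfasted heterozygous (het, blue) and mutant (mut, red) livers; the triangle is mutant 1, lines are means, bars are SD (n = 4), and each panel has its own scale. Cyp2a22 lies between 12.36 and 12.66 in mutants and Hsd3b5 between 5.44 and 5.69, while in Lepr mutant 4 (6.99) lies among the heterozygotes.

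The components of growth hormone signalling moved less than the sex-biased genes. Of 25 measured members 4 rose and 4 fell (4 and 2 without mutant 1). Without mutant 3 or heterozygote 3 there were 2 rises, and the falls were 1 or 2 in each fit without 1 array except that without heterozygote 2, which had 3. The receptor Ghr fell by 0.41 ± 0.09 (limma, adjusted p = 0.00979). Igfals, the acid-labile subunit that carries insulin-like growth factor 1 in blood, read 9.41, 9.35, 9.51 and 9.90 in mutants and 10.11 to 10.45 in heterozygotes. It fell by 0.79 ± 0.20, and the call was lost without mutant 1, 2 or 3 or heterozygote 1, 3 or 4 (highest adjusted p = 0.0777). Igf1 itself differed by -0.21 ± 0.06 (adjusted p = 0.0399), lost without 6 arrays in turn, mutants 1, 3 and 4 and heterozygotes 1, 3 and 4 (highest adjusted p = 0.133). The 4 rises were the binding proteins Igfbp1, Igfbp2, Igfbp3 and Igfbp7, while Igfbp4 (0.07) and Igfbp5 (0.11) did not pass. Igfbp1, which insulin represses, read 12.87, 12.41, 11.29 and 11.60 in mutants and 9.40, 10.14, 7.93 and 9.37 in heterozygotes, with no overlap and a difference of 2.83 ± 0.46 (limma, adjusted p = 0.00206). Igfbp2 rose by 1.41 ± 0.19 with 10.94 to 11.46 against 9.32 to 10.16. Igfbp3 rose by 0.66 ± 0.17, lost without mutant 3 or heterozygote 1 or 3 (highest adjusted p = 0.069), and Igfbp7 by 0.42 ± 0.10, lost without mutant 3 or heterozygote 3 or 4 (highest adjusted p = 0.072). Stat5b was at -0.08 ± 0.07 and did not pass. The feedback inhibitors of the pathway also did not pass, with Socs2 at 0.83 ± 0.44 and Cish at -0.49 ± 0.31. Both spread widely in each group, so that Socs2 ranged from 9.07 to 11.35 in mutants and from 8.54 to 10.46 in heterozygotes.

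The integrated stress response was the next group. In it, kinases that sense amino acid shortage or other stress slow translation, the transcription factor ATF4 is made, and genes for amino acid uptake and synthesis are switched on. Of 36 measured ATF4 targets 17 rose, none fell, and the median was 0.64. That count was 12 without mutant 2 or heterozygote 3, 21 without mutant 3 and 20 without mutant 4. Without mutant 1, which also had the highest mean of this list (9.82, against 9.63, 9.07 and 9.02 in mutants 2 to 4 and 8.50 to 8.66 in heterozygotes), 14 rose, and in the fit of 8 arrays 11 did.

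Stretches of 4 target promoters are shown because they hold the composite element that ATF4 binds together with C/EBP proteins. The promoters are RefSeq's, assembly GRCm38.p6, from 250 bases before to 50 after the start of each gene, and the printed part ends before the start. The letters searched were TGATGNAA on either strand (TTNCATCA on the other), and capitals mark the match. The stretches lie at chr6:7693210-7693272 (Asns, minus strand), chr3:50443614-50443719 (Slc7a11, minus strand), chr7:45615582-45615669 (Fgf21, minus strand) and chr19:27216780-27216867 (Vldlr, plus strand), each written 5′ to 3′ on its gene's strand.
Asns: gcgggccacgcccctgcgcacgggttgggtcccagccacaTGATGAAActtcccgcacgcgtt
Slc7a11: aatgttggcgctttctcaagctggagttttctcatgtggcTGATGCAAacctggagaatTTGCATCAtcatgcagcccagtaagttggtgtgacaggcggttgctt
Fgf21: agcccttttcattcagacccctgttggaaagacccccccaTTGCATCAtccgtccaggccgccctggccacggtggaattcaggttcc
Vldlr: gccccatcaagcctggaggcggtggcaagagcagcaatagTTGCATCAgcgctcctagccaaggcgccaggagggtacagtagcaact

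Slc7a11 held 2 matches, facing each other. Of all measured genes with a promoter in the table, 565 of 15614 held a match (3.62%). In the ATF4 list 9 of 30 genes did, 6 of the 15 that rose and 3 of the 15 that did not pass. The other genes that rose and held one were Trib3 and Jdp2. Among all genes called higher, 27 of 653 held it (4.13%). The share of the whole ATF4 list depends on the list and the promoters alone, and the list was made of known targets. A match describes the letters and does not show that ATF4 was bound.

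Slc7a11, the cystine and glutamate exchanger, read 10.71, 10.45, 9.11 and 5.79 in mutants and 5.49 to 5.56 in heterozygotes. Mutant 4 was thus within 0.3 log2 units of the heterozygotes, and the difference of 3.50 ± 0.82 (limma, adjusted p = 0.0162) lost its call without mutant 2 (adjusted p = 0.0519). Mthfd2, a mitochondrial folate enzyme, read 10.44 and 10.36 in mutants 1 and 2 and 7.90 and 7.91 in mutants 3 and 4, against 7.46 to 7.73. Chac1, a glutathione-degrading enzyme, split the same way, at 11.24 and 11.06 against 8.29 and 8.33, with heterozygotes at 8.11 to 8.68, and did not pass (1.29 ± 0.52, adjusted p = 0.149). The rise of Mthfd2 (1.57 ± 0.46, adjusted p = 0.046) was lost without mutant 1 or 2 or any 1 heterozygote (highest adjusted p = 0.128). Psat1, of serine synthesis, read 10.22, 10.05, 8.86 and 7.98 in mutants against 7.56 to 8.22, and its rise of 1.49 ± 0.37 was lost without mutant 1 or 2 or heterozygote 3 or 4 (highest adjusted p = 0.0736). For these genes mutants 1 and 2 were higher than mutants 3 and 4.

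Other ATF4 targets rose in every mutant. Asns, asparagine synthetase, read 12.16, 12.13, 11.64 and 11.53 in mutants and 8.81, 10.04, 8.42 and 9.61 in heterozygotes (2.65 ± 0.53, limma, adjusted p = 0.00757). Fgf21, a hormone of metabolic stress, read 10.39, 10.03, 9.47 and 9.03 in mutants and between 7.96 and 8.15 in heterozygotes, and rose by 1.65 ± 0.23 (adjusted p = 0.000719). Vldlr, a receptor for lipoproteins that is also in the female-biased list, rose by 1.64 ± 0.25 without overlap. Atf4 itself was at 0.26 ± 0.12 (adjusted p = 0.198) and Ddit3, which encodes the stress factor CHOP, at 0.03 ± 0.33 (adjusted p = 0.973), so neither passed.

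Amino acid transporters were related to this group and shared 4 genes with it that rose, Slc7a11, Slc7a5, Slc3a2 and Slc7a1. Of 29 measured transporters 8 rose and 1 fell (7 and 1 without mutant 1). The rises were 4 without mutant 2 and in the fit of 8 arrays, and 5 without heterozygote 3. Slc3a2, the shared heavy chain of several such exchangers, read 12.76, 12.63, 12.03 and 12.49 in mutants and 11.16 to 11.49 in heterozygotes (1.18 ± 0.14, limma, adjusted p = 0.000254). Its partner Slc7a5, which carries large neutral amino acids, rose by 1.21 ± 0.19. The fall was that of Slc3a1, the heavy chain of the cystine and dibasic amino acid transporter of kidney and gut (-2.19 ± 0.29). Of 18 cytosolic aminoacyl-tRNA synthetases, often counted with ATF4 targets, Gars rose by 0.72 ± 0.13 and Qars fell by 0.29 ± 0.06. The other 16 did not pass. Without mutant 3 or mutant 4 the whole list had 4 rises, Gars included.

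Genes of protein folding in the endoplasmic reticulum moved the other way. This machinery of chaperones, disulfide isomerases and degradation factors serves secreted proteins and is induced when unfolded proteins accumulate. Of 51 measured members 17 fell, none rose, and the median was -0.25. Without mutant 1 there were 24 falls, without heterozygote 3 there were 11, and in the fit of 8 arrays 11.

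Promoter stretches of 4 members are shown because they hold the endoplasmic reticulum stress element, through which the unfolded protein response acts on such genes. It was searched as CCAAT and CCACG with any 9 bases between them, on either strand, and so contains a CCAAT box. Capitals mark the match, and the stretches lie at chr13:12565642-12565740 (Ero1b), chr10:75893202-75893300 (Derl3), chr15:88819480-88819578 (Creld2) and chr12:17266451-17266549 (Pdia6), all on the plus strand of GRCm38.p6 and from RefSeq.
Ero1b: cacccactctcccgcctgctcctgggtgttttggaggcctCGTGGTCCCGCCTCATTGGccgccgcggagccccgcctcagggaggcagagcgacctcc
Derl3: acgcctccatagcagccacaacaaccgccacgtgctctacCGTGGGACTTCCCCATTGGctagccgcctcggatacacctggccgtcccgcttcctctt
Creld2: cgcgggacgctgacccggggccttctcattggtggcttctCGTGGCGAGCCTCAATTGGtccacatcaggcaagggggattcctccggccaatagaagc
Pdia6: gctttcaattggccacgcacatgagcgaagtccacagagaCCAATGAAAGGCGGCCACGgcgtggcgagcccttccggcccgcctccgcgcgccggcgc

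The element was rare, with a match in 21 of 15614 measured genes that had a promoter (0.134%). Of these 21 genes 10 were in the folding list, and 7 of the 10 fell: the 4 shown and Hsp90b1, Calr and Syvn1. The other 3, Hspa5 (-0.36 ± 0.11), Dnajc3 (-0.26) and Canx (-0.14), did not pass with all arrays and fell without mutant 1. None of the 11 genes outside the list was called. In the list, 7 of the 14 genes that fell and had a promoter held the element, against 3 of the 27 that did not pass. That 10 of the 21 genes were in the list depends on the list and the promoters alone, not on these arrays.

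Sdf2l1, a factor bound to the chaperone BiP, read 9.09, 9.20, 8.77 and 9.38 in mutants and 10.13, 10.81, 10.47 and 10.29 in heterozygotes (-1.32 ± 0.18, limma, adjusted p = 0.00071). Ero1b, an oxidase of disulfide formation, read 9.51, 9.11, 9.25 and 9.0 against 9.67, 10.89, 10.26 and 10.13 (-1.02 ± 0.19). Neither gene overlapped between groups, though heterozygote 1 came near the mutants in Ero1b. Derl3, of the degradation pathway, fell by 0.80 ± 0.14 and the chaperone Hyou1 by 0.71 ± 0.17. In Hyou1 mutants 1 and 4 both read 10.67, close to heterozygote 1 at 10.73, and the call was lost without mutant 2 or 3 or heterozygote 3 or 4 (highest adjusted p = 0.0586). Creld2 overlapped in the same place, with mutant 1 at 10.68 and heterozygote 1 at 10.67, and lost its call without mutant 2 or 3 or heterozygote 2 or 3 (highest adjusted p = 0.0827). Hspa5, which encodes BiP, read 12.50, 12.30, 11.90 and 12.48 in mutants and 12.40 to 12.79 in heterozygotes (adjusted p = 0.0686, and 0.0386 without mutant 1). Acinar cells express this machinery at high levels. Mutant 1, with the acinar transcripts, had the highest mutant mean of the list, 10.81, against 10.44 to 10.64 in mutants 2 to 4 and 10.76 to 10.99 in heterozygotes. The part of those transcripts in this array's folding genes was not tested. The sensors and regulators Xbp1 (0.00), Atf6 (0.24 ± 0.10) and Eif2ak3 (0.31 ± 0.18) did not pass. Of 17 heat shock proteins of the cytosol 2 fell and none rose, and the falls were 4 without heterozygote 1, 3 without mutant 1 and 1 without mutant 2 or heterozygote 3 or 4. The 2 were the co-chaperones Bag3 (-0.45 ± 0.10) and Dnajb4 (-0.31 ± 0.08, lost without mutant 2 or 3 or heterozygote 3 or 4, highest adjusted p = 0.0807).

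**Figure D3:**
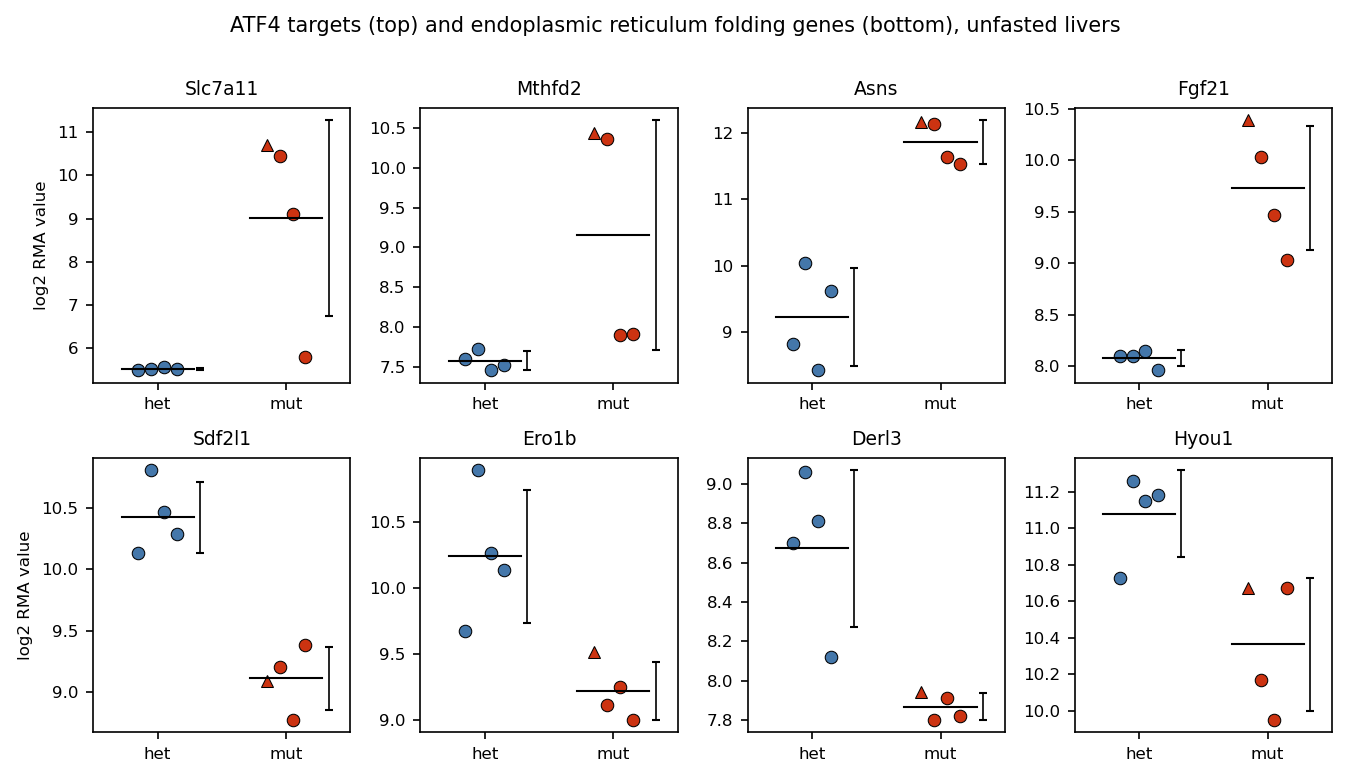
Log2 RMA values of 4 ATF4 targets (top) and 4 endoplasmic reticulum folding genes (bottom) on each array of unfasted heterozygous (het, blue) and mutant (mut, red) livers; the triangle is mutant 1, lines are means, bars are SD (n = 4), and each panel has its own scale. In Slc7a11 mutant 4 (5.79) lies near the heterozygotes, and in Mthfd2 mutants 3 and 4 (7.90 and 7.91) do.

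**Figure D4:**
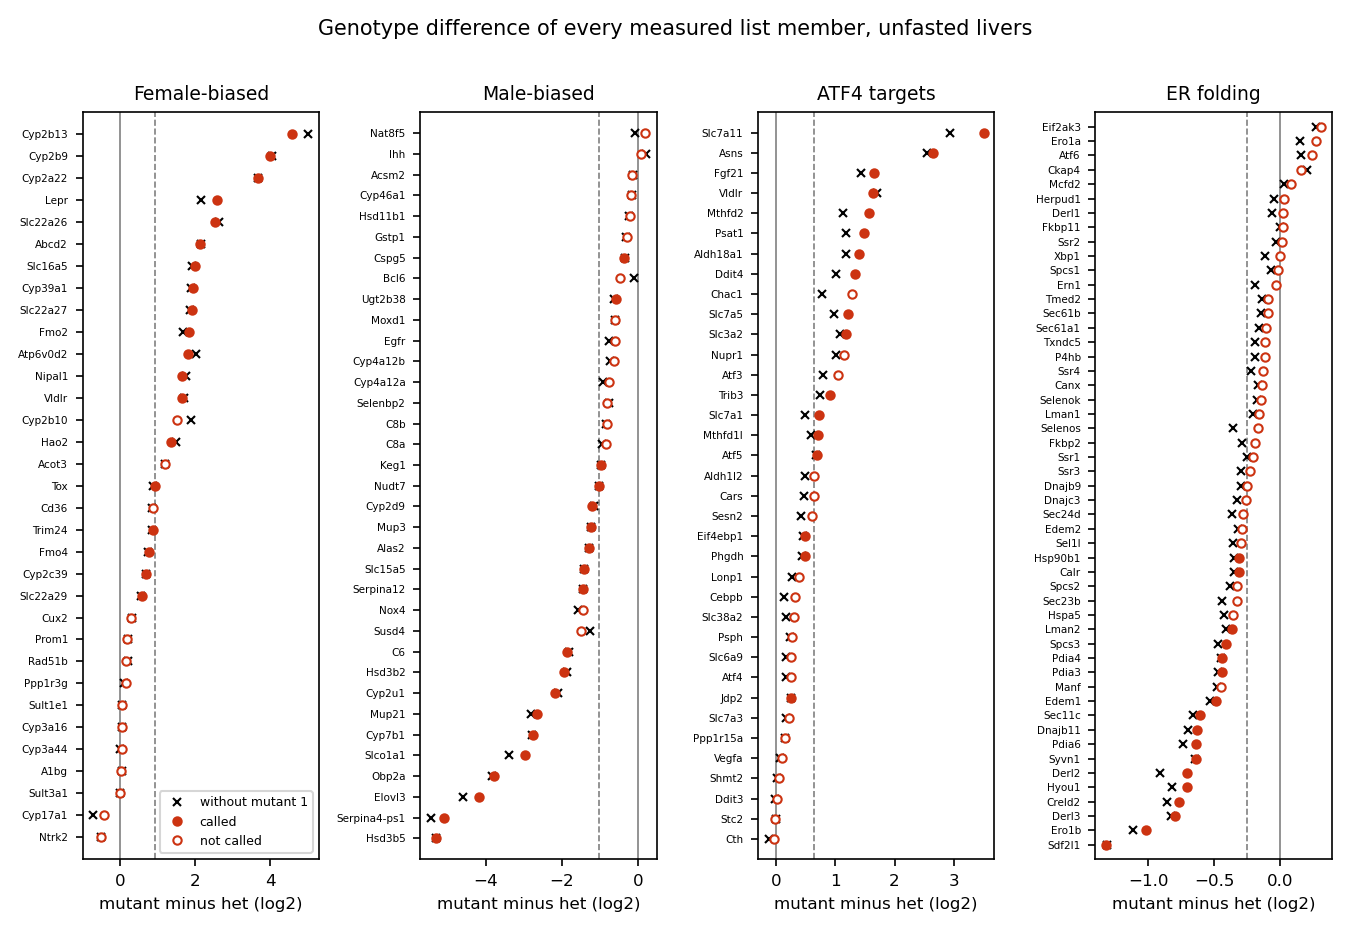
Genotype difference (mutant minus heterozygous, log2) of every measured member of 4 lists; filled circles were called, open circles were not, crosses give the difference without mutant 1, and dashed lines the list medians. Medians are 0.93 for female-biased genes, -1.02 for male-biased genes, 0.64 for ATF4 targets and -0.25 for endoplasmic reticulum (ER) folding genes.

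Calls among genes of mitochondrial energy metabolism were unevenly spread over the lists. Of 71 measured subunits of oxidative phosphorylation only Ndufb3, of complex I, was called (-0.31 ± 0.07, limma, adjusted p = 0.0139), and the median was 0.01. Of 31 genes of the tricarboxylic acid cycle and pyruvate dehydrogenase 4 rose and none fell (4 and 1 without mutant 1). Idh2, the mitochondrial NADP-linked isocitrate dehydrogenase, read 11.89, 11.72, 12.04 and 12.16 in mutants and 11.12, 11.18, 10.88 and 10.84 in heterozygotes (0.94 ± 0.10, adjusted p = 0.000119). Pdk4, a kinase that switches pyruvate dehydrogenase off, rose by 2.17 ± 0.39, with 12.03, 11.77, 11.15 and 10.54 against 8.56 to 10.22. Pdp1, a phosphatase that switches it on, rose as well, by 0.55 ± 0.08, with 8.48 to 8.66 against 7.97 to 8.07. Mdh2 rose by 0.39 ± 0.09, lost without heterozygote 3 or 4 (highest adjusted p = 0.0634).

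Of 40 measured targets of PPAR-alpha, the receptor that turns on fatty acid use, 10 rose and none fell. Without mutant 1 the counts were 8 and 2, without heterozygote 3 there were 6 rises, and in the fit of 8 arrays 4. Acot2, a mitochondrial acyl-CoA thioesterase, read 12.35, 12.01, 11.56 and 11.33 in mutants and 9.11 to 10.53 in heterozygotes (1.93 ± 0.30, limma, adjusted p = 0.00157). Acot6, a peroxisomal thioesterase outside that list, rose by 0.80 ± 0.13. The trifunctional protein subunit Hadhb rose by 0.46 ± 0.09 and the dehydrogenase Acadl by 0.44 ± 0.08, 2 of the 5 of 22 genes of beta-oxidation and ketogenesis that rose. That count was 3 without mutant 1, 2 or 3 or heterozygote 3 or 4, and 2 in the fit of 8 arrays. Cpt1a, the entry step of beta-oxidation, was at 0.24 ± 0.10 (adjusted p = 0.173). Cyp4a14 had heterozygotes at 12.85, 13.18, 11.94 and 9.70 and mutants at 13.19 to 13.35, and did not pass (1.35 ± 0.49, adjusted p = 0.103). The sterol carrier gene Scp2, of the peroxisome, fell by 0.30 ± 0.06. Ppargc1a, a regulator of mitochondrial biogenesis, read 0.33 ± 0.26 higher (adjusted p = 0.535).

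Lipid synthesis was counted in 2 lists. Of 36 genes of fatty acid and triglyceride synthesis 6 fell and 2 rose (5 and 0 without mutant 1). The falls were 3 without heterozygote 3 or 4 and in the fit of 8 arrays. The largest fall was that of Elovl3 (-4.17), counted above as male-biased. Between the fasted groups 8 of the list were called higher and 5 lower. Srebf1, the regulator of lipogenesis, read 9.31, 9.50, 9.49 and 10.21 in mutants and 10.45 to 10.96 in heterozygotes (-1.10 ± 0.17, limma, adjusted p = 0.0013). Acly, which supplies cytosolic acetyl-CoA, fell by 0.66 ± 0.16, with an overlap at heterozygote 2, and lost its call without heterozygote 3 or 4 (highest adjusted p = 0.055). Fasn, the fatty acid synthase, was at -0.35 ± 0.14 (adjusted p = 0.139). In cholesterol synthesis 4 of 20 genes rose, none fell and the median was 0.51. That count was 3 without mutant 1, 2 without mutant 2 or 3 or heterozygote 2, 3 or 4, and 6 in the fit of 8 arrays. Heterozygote 2 had the lowest mean of this list, 10.05 against 10.51 to 10.70 in the other heterozygotes, and without it the median was 0.37. Lss, lanosterol synthase, rose by 0.98 ± 0.22, with 10.28 to 10.69 in mutants and every heterozygote lower. Srebf2, the regulator of this branch, rose by 0.41 ± 0.09. Sqle, squalene epoxidase, read 11.17, 11.21, 10.97 and 10.84 in mutants and 10.40, 8.48, 9.45 and 9.96 in heterozygotes and missed the threshold (1.48 ± 0.45, adjusted p = 0.054).

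Of 33 genes of bile acid synthesis and transport 8 fell and 2 rose (6 and 2 without mutant 1). The falls included Cyp7b1 and Slco1a1 and the rises Cyp39a1, which were all named above with the sex-biased genes. The falls were 5 without mutant 2 or heterozygote 1 or 2, and 3 without mutant 3 or heterozygote 3 or 4. Cyp8b1, which sets the share of cholic acid, read 7.79, 8.51, 9.72 and 11.26 in mutants and 10.85 to 11.67 in heterozygotes, so that mutant 4 lay inside the heterozygous range. Its fall of 1.95 ± 0.55 (limma, adjusted p = 0.0411) was lost without mutant 1, 2 or 3 or heterozygote 2, 3 or 4 (highest adjusted p = 0.122). Slc10a2, an uptake transporter of bile acids, read 6.56, 6.71, 6.25 and 8.14 against 8.98 to 9.66 (-2.36 ± 0.33, adjusted p = 0.000754). Cyp7a1, the rate-limiting enzyme of the classical pathway, was at 0.57 ± 0.41 and did not pass. Abcc4, an exporter of bile acids and nucleotides on the blood side, rose by 2.13 ± 0.24, with 9.69 to 10.58 against 7.37 to 8.42 (adjusted p = 0.000124).

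In glucose metabolism 7 of 34 genes of gluconeogenesis and glycogen fell and 4 rose (5 and 4 without mutant 1). The falls were the less stable: 4 without heterozygote 2, 2 without heterozygote 4, 1 without mutant 2 or heterozygote 3, and none in the fit of 8 arrays. G6pc, the catalytic subunit of glucose-6-phosphatase, read 11.68, 11.95, 12.36 and 12.69 in mutants and 12.81 to 13.02 in heterozygotes, a fall of 0.74 ± 0.17 (limma, adjusted p = 0.0167) lost without mutant 2 or heterozygote 3 (highest adjusted p = 0.055). Pck1, the cytosolic phosphoenolpyruvate carboxykinase, was at 0.09 ± 0.10, and Pck2, the mitochondrial form, rose by 0.50 ± 0.09. Aqp7, the glycerol channel, read 8.20, 8.37, 9.86 and 7.80 in mutants and 6.38 to 6.70 in heterozygotes (2.02 ± 0.32).

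Genes of amino acid degradation and the urea cycle changed mostly downward. Of 45 measured genes 12 fell and 1 rose, with a median of -0.28. Without mutant 1 the counts were 9 and 0. The falls were 7 without mutant 2 and in the fit of 8 arrays, 6 without mutant 3, 4 without heterozygote 3 and 5 without heterozygote 4. Hal, histidine ammonia-lyase, read 10.48, 10.66, 10.87 and 11.70 in mutants and 12.08 to 12.37 in heterozygotes (-1.35 ± 0.26, limma, adjusted p = 0.00536). Ftcd, the next folate-linked step of histidine breakdown, fell by 0.93 ± 0.16, and Haao, of tryptophan breakdown, by 0.72 ± 0.16. In the urea cycle Otc was at -0.83 ± 0.25 (adjusted p = 0.0551) and Cps1 at -0.39 ± 0.17 (adjusted p = 0.187), and neither passed. Of the genes kept near the portal vein in the liver lobule 7 of 17 fell and none rose (6 without mutant 1, 4 in the fit of 8 arrays). Pigr, the receptor that carries immunoglobulin A into bile, read 9.21, 9.02 and 9.41 in mutants 1 to 3 and 11.67 in mutant 4, which lay within the heterozygous range of 11.63 to 12.21 (-2.12 ± 0.40). Etnppl, a phosphoethanolamine lyase, fell by 1.60 ± 0.31. Of 23 pericentral genes 2 rose and 1 fell. Glul (0.08 ± 0.12) and Cyp2e1 (-0.01 ± 0.03), 2 defining markers of that zone, did not pass.

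Complement and coagulation proteins, which the liver secretes into plasma, were called in 1 direction only. Of 34 genes of complement and coagulation 11 fell and none rose, with a median of -0.23 (12 and 0 without mutant 1, though 1 gene rose without mutant 4 or heterozygote 1). The falls were 7 without mutant 3 or heterozygote 4 and 5 without heterozygote 3. C9, the pore-forming terminal component, read 9.29, 10.38, 9.51 and 11.67 in mutants and 12.24 to 12.74 in heterozygotes (-2.27 ± 0.46, limma, adjusted p = 0.00824). C6 fell by 1.86 ± 0.28, C8g by 0.48 ± 0.07 and the coagulation factor F11 by 0.80 ± 0.18, whose call was lost without heterozygote 3 (adjusted p = 0.0501). C9 and C6 are among the genes reported as male-biased in mouse liver, and C6 was counted in that list too. The acute phase glycoprotein Orm1 read 8.64, 9.72 and 8.19 in mutants 1 to 3 and 12.28 in mutant 4, against 12.44 to 12.95 (-3.04 ± 0.63). In C9, Orm1 and Pigr mutant 4 was the nearest of the 4 to the heterozygotes. Apcs, serum amyloid P, rose by 1.38 ± 0.28, while Saa1, serum amyloid A, was at -0.03. Serpina7, which carries thyroid hormone, read 12.47, 12.21, 11.62 and 11.81 against 9.86 to 10.57. Its rise of 1.88 ± 0.49 was lost without mutant 1 or 2 or heterozygote 1, 3 or 4 (highest adjusted p = 0.0793).

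The metallothioneins, which bind zinc and copper and respond to glucocorticoids, varied in both groups. Mt1 read 12.62, 12.70, 11.54 and 11.17 in mutants and 11.98, 9.54, 8.46 and 8.36 in heterozygotes, and heterozygote 1 lay among the mutants. Its rise of 2.42 ± 0.63 (limma, adjusted p = 0.027) was lost without mutant 1 or 2 or heterozygote 2, 3 or 4 (highest adjusted p = 0.101). Lcn2, an acute phase protein, had the same order among heterozygotes, 10.68, 8.90, 8.52 and 8.03, and did not pass (2.02 ± 0.62, adjusted p = 0.0574). Of 36 genes of the NRF2 and glutathione response 4 rose and 1 fell (2 and 1 without mutant 1 or 3 or heterozygote 3 or 4), and 2 of the 4 were Slc7a11 and Abcc4. Hmox1, heme oxygenase, rose by 1.31 ± 0.38, lost without mutant 1, 2 or 3 or heterozygote 2, 3 or 4 (highest adjusted p = 0.137), while the classical target Nqo1 was at 0.89 ± 0.28 (adjusted p = 0.0671). Mutant 3 held the highest Nqo1 value, 9.28, and the other mutants read 7.79 to 8.02. Of 24 p53 targets 2 rose and 1 fell, and in each fit without 1 array at most 1 rose.

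Cell cycle genes were called in 1 direction only, upward. Of 44 measured members 21 rose, none fell, and the median was 0.29. Without mutant 1 there were 27 rises, without mutant 2, heterozygote 3 or heterozygote 4 there were 10, without mutant 3 there were 11, and in the fit of 8 arrays 8. Ccnd1, cyclin D1, read 11.65, 11.73, 12.11 and 12.11 in mutants and 10.68, 10.36, 9.58 and 9.67 in heterozygotes (1.82 ± 0.28, limma, adjusted p = 0.00146). Mki67, a marker of proliferating cells, read 7.17, 7.75, 8.31 and 7.76 against 6.72 to 7.01 (0.82 ± 0.17). Mcm6, a subunit of the replication helicase, rose by 0.89 ± 0.17 and Top2a, topoisomerase of dividing cells, by 0.69 ± 0.13. In Mki67 and Top2a mutant 3 was the highest and mutant 1 the lowest of the mutants, and Ccna2 passed only without mutant 1 (0.72, adjusted p = 0.00706). Ccne1 and the E2F factors E2f1 and E2f2 did not pass.

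Markers of endothelial and stellate cells were higher in mutants. All 20 measured endothelial markers lay above 0, 14 rose, and the median was 0.37 (13 rises without mutant 1, 8 without heterozygote 3, 6 in the fit of 8 arrays). The list mean was 9.62 to 9.74 in mutants and 9.06 to 9.41 in heterozygotes, without overlap. Lyve1, a marker of sinusoidal and lymphatic endothelium, rose by 1.37 ± 0.31 (limma, adjusted p = 0.0143, lost without heterozygote 3 or 4, highest adjusted p = 0.0549), and the growth factor receptor Flt4 by 0.65 ± 0.12. Of 19 markers of stellate cells and fibroblasts 11 rose and none fell (10 without mutant 1, 5 without heterozygote 3, 7 without heterozygote 4). The list mean was 8.84 to 8.97 in mutants and 8.51 to 8.65 in heterozygotes. Pdgfra read 8.30, 8.46, 8.61 and 8.51 against 7.84 to 8.05 (0.51 ± 0.08). The activation marker Acta2 (0.00) and the fibrillar collagen Col1a1 (0.12 ± 0.06) did not pass. Of 33 matrix genes 8 rose and none fell, and 14 rose without mutant 1, led by Sparc (0.58 ± 0.15) and including the growth factor Tgfb1 (0.46 ± 0.09) and the basement membrane collagen Col4a2 (0.45 ± 0.07). Sparc lost its call without mutant 2 or 3 or heterozygote 3 or 4 (highest adjusted p = 0.0954).

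None of 22 macrophage markers, 18 lymphocyte markers, 9 cholangiocyte markers or 13 hepatocyte markers was called. Without mutant 1 there were 1 macrophage, 3 cholangiocyte and no lymphocyte markers called higher and 1 hepatocyte marker lower, and without mutant 4 there were 5 macrophage markers higher. Above 0 lay 21 of the 22 macrophage markers, 16 of the 18 lymphocyte, 7 of the 9 cholangiocyte and 5 of the 13 hepatocyte markers. The macrophage list's median was 0.27, and its means overlapped, at 8.51 to 8.99 in mutants and 8.30 to 8.68 in heterozygotes. Between the fasted groups 14 macrophage markers were called higher and none lower, with a median of 0.64, beside 8.62% of all genes called higher there. Mutant 3 had the highest means of the macrophage, lymphocyte and cholangiocyte lists (8.99, 6.69 and 7.65) and the lowest of the hepatocyte list (12.52). Of 13 neutrophil markers, all dim, 2 rose and none fell, beside 4.25% of all genes called higher, and 11 lay above 0. There were 2 rises without mutant 1 and none without heterozygote 2 or 3 or in the fit of 8 arrays. The neutrophil list mean was 6.29 to 6.43 in mutants and 6.17 to 6.25 in heterozygotes, without overlap. Of 5 erythroid markers 2 fell, Car1 by 1.14 ± 0.30 and Alas2 by 1.30 ± 0.33, and Alas2 was also in the male-biased list. Car1 lost its call without mutant 1 or 2 or heterozygote 3 or 4 (highest adjusted p = 0.0895), and Alas2 without mutant 2 or 3 or heterozygote 3 or 4 (highest adjusted p = 0.0816). Whether the share of cells or the RNA of each cell differed was not tested.

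**Figure D5:**
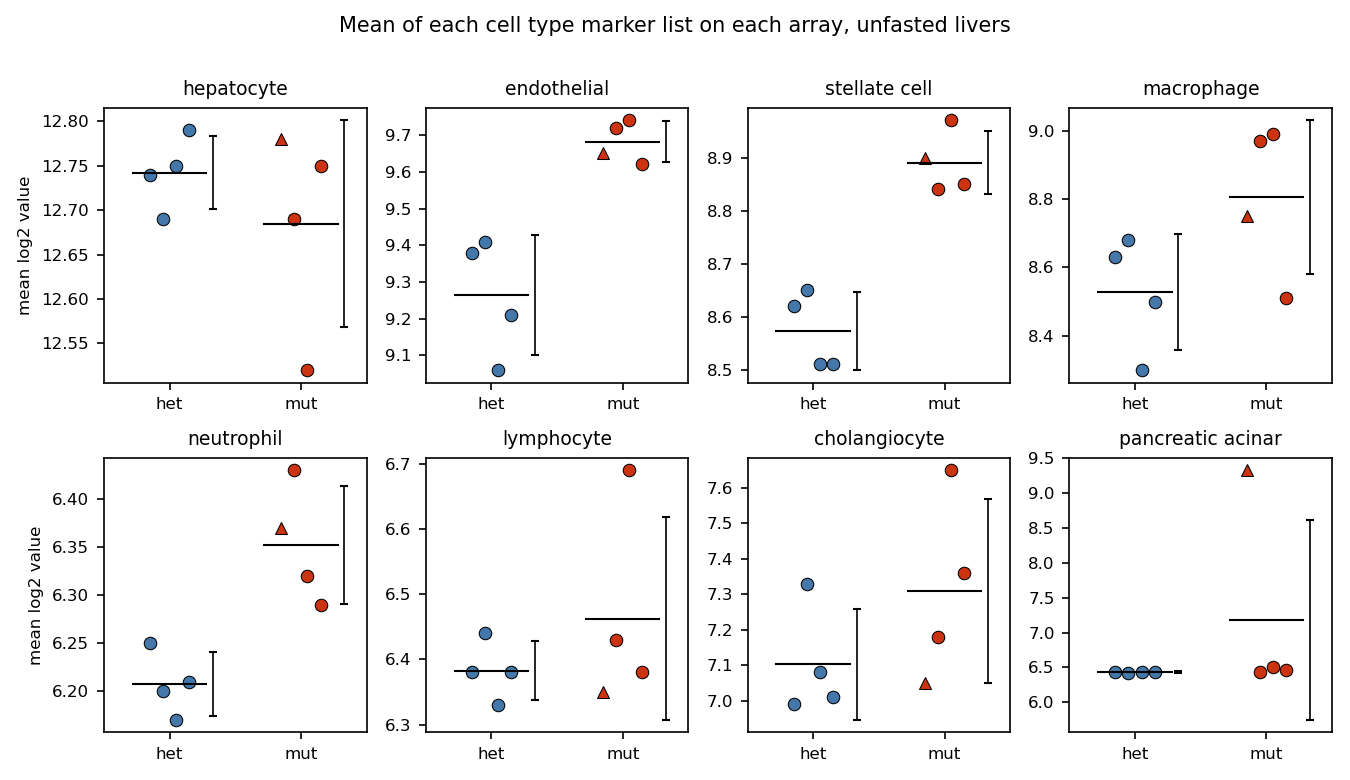
Mean log2 value of the measured members of 8 cell type marker lists on each array of unfasted heterozygous (het, blue) and mutant (mut, red) livers; the triangle is mutant 1, lines are means, bars are SD (n = 4), and each panel has its own scale. Endothelial, stellate cell and neutrophil means do not overlap between groups (9.62 to 9.74 against 9.06 to 9.41 for endothelial markers). The acinar mean is 9.33 in mutant 1 and at most 6.50 elsewhere.

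Of 25 measured genes of iron handling 5 rose and 2 fell (5 and 2 without mutant 1). The rises were 3 without mutant 2 or 3 or heterozygote 2 or 4 and in the fit of 8 arrays, and 2 without heterozygote 3, and there was 1 fall without mutant 2 or 3 or heterozygote 3 or 4. The falls were Tfr2, the second transferrin receptor (-0.33 ± 0.07), and Alas2. The rises were Hmox1, Smad6, an inhibitor of bone morphogenetic protein signalling (0.48 ± 0.10), and 3 genes of that pathway, by which liver endothelium tells hepatocytes about iron. The ligand Bmp2 rose by 0.68 ± 0.15 and Bmp6 by 0.48 ± 0.13, and Id1, a direct target, read 9.17, 8.89, 8.95 and 8.99 in mutants and 8.17, 8.15, 7.94 and 7.63 in heterozygotes (1.03 ± 0.12, limma, adjusted p = 0.000256). Bmp2 lost its call without heterozygote 3 (adjusted p = 0.0544), and Bmp6 without mutants 2, 3 and 4 or heterozygotes 2, 3 and 4, each in turn (highest adjusted p = 0.128). Hamp, the iron hormone hepcidin and also a target, was at 0.10 ± 0.15. Among lysosomal genes 7 of 34 rose and 3 fell (7 and 3 without mutant 1). The rises were 3 without heterozygote 3 or 4 and 4 in the fit of 8 arrays. The largest was that of Atp6v0d2 (1.81 ± 0.34), with 7.76 to 8.92 in mutants and 6.27 to 6.85 in heterozygotes. Cd63, a membrane protein of late endosomes, read 10.34, 9.89, 10.52 and 10.11 against 8.47 to 9.04 (1.47 ± 0.27), and Hexa, a subunit of beta-hexosaminidase, rose by 0.79 ± 0.12. Of 35 interferon and antigen presentation genes 5 fell and 1 rose. The falls were 3 without mutant 1 or heterozygote 1, 3 or 4 and in the fit of 8 arrays. Ifi27 fell by 1.16 ± 0.13, Ifit1 by 0.62 ± 0.13 and Irgm1 by 0.62 ± 0.12, while Usp18, which restrains interferon signalling, rose by 1.46 ± 0.22 with 9.13 to 10.21 against 8.08 to 8.72. Csnk1e, a kinase of the clock, rose by 0.63 ± 0.10, and the 18 other clock genes measured did not pass. Without heterozygote 1 the whole list of 19 had 5 rises, Csnk1e included, and 1 fall.

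Several genes outside these groups were named because their p-values were among the smallest in their direction. That choice favours genes that separate the genotypes cleanly. The SDs of these genes were 0.12 to 0.33 in mutants and 0.16 to 0.33 in heterozygotes, above the medians of 0.11 and 0.07. Bdh2, a dehydrogenase linked to siderophore synthesis, read 6.91, 7.10, 6.94 and 7.49 in mutants and 8.47 to 8.92 in heterozygotes (-1.61 ± 0.13, limma, adjusted p = 8.45e-06). Tmem19, a membrane protein, read 9.77 to 10.08 against 11.10 to 11.59 (-1.48 ± 0.12). Slc35f2, a solute carrier, rose by 1.64 ± 0.16, App, the amyloid precursor protein, by 1.38 ± 0.14, Tenm3, a teneurin, by 1.03 ± 0.10, and Prss8, the serine protease prostasin, by 1.77 ± 0.19. In these genes no mutant array overlapped a heterozygous one.

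Some genes changed their side of the threshold with mutant 1. Without it 311 of the 1584 calls were lost and 455 were gained. Gained among the larger rises were Defb1, a defensin (1.41 without mutant 1, adjusted p = 0.0349), and Gipc2 (1.23, adjusted p = 0.0143), and among the falls the lysolipid transporter Mfsd2a (-1.80, adjusted p = 0.027) and Fabp2, a fatty acid binding protein (-1.64, adjusted p = 0.0212). In Fabp2 mutant 4 read 7.75 and mutants 1 to 3 read 9.87 to 10.46, against 10.49 to 11.19. Lost were Ppp1r3c, a glycogen-targeting subunit (-1.30, adjusted p = 0.0745), P2ry4, a nucleotide receptor (-1.16, adjusted p = 0.0703), and the sulfotransferase Sult2a8 (-1.16, adjusted p = 0.0793), beside Mt1, Mt2, Psat1, Mthfd2, Cyp8b1, Mup3 and Serpina7.

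The fasted groups gave the same contrast in other mice, with the fast not matched in length. There 2716 genes were called (13.6%), with 8.62% of all genes higher and 5.01% lower. After the fast, 531 of the 848 genes higher in unfasted mutants and 298 of the 736 lower ones were called in the same direction. The interaction of genotype and fasting was called for 2 genes, both more negative unfasted, and 2189 genes had an unadjusted p below 0.05. Hsd3b5 averaged 5.55 in unfasted and 5.52 in fasted mutants, and 10.84 in unfasted and 6.93 in fasted heterozygotes, so only the heterozygotes moved. How far the low mutant signal bounded the fasted difference was not tested. Hsd3b5 differed by -5.29 between genotypes unfasted and by -1.41 fasted, an interaction of -3.87 ± 0.49 (limma, adjusted p = 0.0147). Its call was lost without mutant 1, 3 or 4 or heterozygote 3 (adjusted p 0.0534 to 0.0566). Xkr9, named because it was the only other call, was 0.56 lower unfasted (9.15 to 9.36 in mutants against 9.75 to 9.92) and 0.39 higher fasted, an interaction of -0.95 ± 0.14 (adjusted p = 0.04995). Among the 8 fits that left out 1 array it kept its call only without heterozygote 1 (adjusted p = 0.0392), and the highest adjusted p was 0.11. It also kept its call after a second quantile normalization (adjusted p = 0.0473) and with the mean over probe sets (0.04997). For Igfbp1 (2.83 unfasted, 0.98 fasted), Fgf21 (1.65 and 0.62), Srebf1 (-1.10 and -0.10), Ahr, the aryl hydrocarbon receptor (0.65 and 0.02), Scp2 (-0.30 and 0.01) and Gadd45b, a stress-induced growth regulator (1.68 and 0.23), the difference between states was not called.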

How the data were processed

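RNA from 16 livers, each on its own array, was hybridised to the Affymetrix Mouse Gene 1.0 ST platform. The authors deposited 1 table of log2 values, made with RMA in Affymetrix Expression Console per the submitters' processing notes. Software versions, library file and build are not given in the sources used here. The log2 scale was read from the range of 3.80 to 14.33.

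Of 35556 probe sets, 21789 had 1 gene symbol. Symbols were updated by gene number through RefSeq's table (GRCm38.p6; 21698 matched), and the brightest probe set per gene was kept, leaving 19938 genes. No detection calls were available, so changes of dim genes may be compressed. Precision is limited by the number of arrays.

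Group means were estimated for the 4 groups over all 16 arrays (limma 3.58.1, R 4.3.3; eBayes with trend; two-sided; Benjamini-Hochberg over all genes) and checked on simulated data. The simulation gave each gene the same spread on all 16 arrays, so it could not check the effect of unequal spread between groups. Differences are mutant minus heterozygous ± SE. Genes were marked for naming by fixed rules, and not all of those marked appear in the text. They were the 20 largest rises and falls among called genes without overlap and the 5 of smallest p each way. Up to 5 called members per list were added, and up to 5 each way that gained or lost a call without mutant 1. There were also 8 fixed genes, of which Gdf15 was not analysed here. Predicted genes, clones, olfactory and small RNA genes were not named. Other genes named were chosen after their values were seen. The 51 lists and all members were chosen with earlier results of these data known. Alternatives were leaving out each array, a replicate block, only the 8 arrays, array weights, 2 rescalings, brighter genes, robust moderation, the mean over probe sets, a 2-fold minimum and a threshold of 0.01.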

Additional observations from a re-analysis of the deposited data

Results flagged for a closer look

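Values on single arrays that stood far from the other 3 of their group were looked for in 198 named genes, in both groups. Dixon's test at its 95% critical value marked 25 of 396 groups (6.31%), and chance alone marks about 1 in 20. Of the 25, 18 were in mutants, 7 of them on mutant 1. No explanation was tested for any of them.

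On mutant 1, the acinar genes Cpa1 (12.29) and Ctrb1 (12.64) stood far above the other mutants, App (11.96) and Slc25a25 (9.96) were also the highest, and Cyp2b9 (12.78), Ckap2 (5.94) and Flt4 (8.82) were the lowest. On mutant 2, Keg1 (11.34) and S100a9 (7.16) were high, and Ahr (10.67) and Usp18 (9.13) low. On mutant 3, Igfbp3 (9.67) was high and Bag3 (9.37) low. On mutant 4, Cyp2u1 (8.47), Kynu (12.12), Pigr (11.67) and P2ry4 (8.84) were high, each towards the heterozygous level, and Cpt1a (11.80) was low.

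Among heterozygotes, replicate 1 was low in Elovl3 (11.13) and high in Slc35f2 (6.87), Osbpl3 (7.49) and Ctrb1 (7.57). Replicate 2 was low in Mmut (9.66) and high in Gars (9.81), and replicate 4 was low in Mki67 (6.72).

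The genotype difference itself differed between the unfasted and the fasted state in Hsd3b5 (-3.87 log2 units, interaction in limma, adjusted p = 0.0147) and Xkr9 (-0.95, adjusted p = 0.04995). For Hsd3b5 the mutant mean was 5.55 unfasted and 5.52 fasted, and the heterozygous mean 10.84 and 6.93.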

How the results depend on the processing

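All 184 called genes among the 198 named kept their direction in every alternative, and 82 kept their call in each. With 1 array left out in turn, calls ranged from 698 to 1728, rises from 377 to 973, falls from 321 to 755 and interaction calls from 0 to 6. The 8 unfasted arrays alone gave 764 calls (387 higher, 377 lower) and 202 called list entries against 314. Without mutant 1 as well, added after seeing the data, they gave 663 (357 and 306). An adjusted p below 0.01 left 461 (251 and 210) and a 2-fold minimum 148 (77 and 71). Median-centring the arrays moved the median of all genes by -0.045 and gave 643 higher and 1233 lower (34.3% higher, against 53.5%). A second quantile normalization gave 886 and 837. Interaction calls were 1 with array weights or median-centring, and 0 with robust moderation. With brighter genes only they were 0 as well, but Hsd3b5 was not among those genes and so was not tested there. The causes were not tested.

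Same-numbered arrays did not pair: their deviations correlated at 0.15, 0.01, -0.07 and 0.25, and only number 1 correlated best with its own number. A replicate block gave 1672 calls (886 higher, 786 lower), and 2272 without mutant 1. With 4 mice per group the list counts depend on single arrays, above all on heterozygotes 3 and 4.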

Other observations

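Responses to foreign compounds were mixed. Of 31 measured targets of the receptors CAR, PXR and AhR 4 rose and 3 fell (4 and 2 without mutant 1). Without heterozygote 1 there were 7 rises, without mutant 3 or heterozygote 3 or 4 there was 1 fall, and the fit of the 8 unfasted arrays gave 2 and 2. Ahr, the aryl hydrocarbon receptor, rose by 0.65 ± 0.10 (limma, adjusted p = 0.00165), with 10.67 to 10.82 in mutants and 9.86 to 10.44 in heterozygotes, while its target Cyp1a2 was at 0.34 and did not pass. Abcb1a, a drug efflux pump, rose by 1.05 ± 0.22, and Ces2a, a carboxylesterase, fell by 0.58 ± 0.12. Cyp3a11, a main PXR target, was at -0.01.

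Tuba8 and Itga6, in none of the gene lists, were 2 of the 20 largest rises. Tuba8, an alpha-tubulin, read 9.84, 9.33, 9.70 and 10.67 in mutants and 7.96 to 8.22 in heterozygotes (1.81 ± 0.20, limma, adjusted p = 0.00013). Itga6, a laminin-binding integrin, read 9.61, 9.47, 8.84 and 8.55 against 6.92 to 8.19 (1.80 ± 0.27). Neither gene overlapped between groups. Slc16a5 (1.99 ± 0.25) was also among the 20 largest rises. Ces3b (-2.23 ± 0.50), Dpy19l3 (-2.14 ± 0.28) and Wfdc21 (-1.60 ± 0.24) were among the 20 largest falls.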
